A study of Mus musculus with 12 samples.

Results

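Genes of motile cilia encode the motors and scaffolds of beating cilia, which in the brain are borne by the cells that line the ventricles next to the hippocampus. The 56 genes described here were the protein-coding genes whose normalised counts averaged at least 10 over 12 mice and whose symbols start with Cfap, Dnah, Dnaic, Rsph or Tekt, together with Foxj1, out of 55487 genes in the table and 18221 genes that passed the same limit. Of the other genes with such symbols, 6 had a mean below the limit (Cfap73, Cfap97d1, Dnah17, Rsph6a, Rsph14 and Tekt3), Dnah2os is not protein coding, and Cfap45 and Cfap126 were left out because they lie near Usf1. Hippocampal RNA was sequenced from 6 wildtype (WT) and 6 USF-1 KO mice, all C57Bl/6JRccHsd and 3 to 4 months old, with 1 library per mouse. WT and USF-1 KO mice were bred from heterozygous USF-1 deficient parents, and the labels name no treatment. By those labels the mice comprised 4 females and 2 males among WT and 2 females and 4 males among KO. The legend of the paper's transcriptome figure instead gives 3 males and 3 females per genotype, and sex is taken from the labels here. USF-1 is a ubiquitous transcription factor that binds the E-box, and the labels give no cell type or promoter to which its loss would be limited. The question put to these genes was whether their levels differed between the genotypes, and how each mouse's level stood beside its count of Ttr, the transthyretin transcript that marks the choroid plexus.

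Motile cilia beat by means of dynein motors fixed in outer and inner arms to a ring of doublet microtubules, while radial spokes link that ring to a central pair and control the stroke. In the brain they are borne in tufts by ependymal cells, where they move cerebrospinal fluid along the ventricular wall, and the choroid plexus epithelium also carries cilia. Foxj1 is the transcription factor that drives motile ciliogenesis, and it acts with factors of the RFX family on promoters of ciliary genes. By role, the 56 genes comprised Foxj1, 6 chains of the outer dynein arm, 10 heavy chains of the inner arms, 6 radial spoke genes, 4 tektins, which are filament proteins of the doublet microtubules, and 29 genes named Cfap for cilia and flagella associated proteins.

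The promoter windows of 6 of these genes are shown because they hold the letters bound by USF-1 or by RFX factors. They are the 4 windows with the E-box and those of Cfap161 and Cfap298, which held the most copies of the RFX half-site. Each window runs from 250 bases before to 50 bases after the gene start of RefSeq on GRCm38.p6, written 5′ to 3′ on the strand of the gene, and capitals mark the E-box CACGTG, the RFX half-site GTTGCC and the forkhead core GTAAACA on either strand. The windows are Cfap47 at chrX:79517302-79517601 (reverse strand), Cfap57 at chr4:118620736-118621035 (reverse), Dnaic2 at chr11:114727169-114727468 (forward), Cfap20 at chr8:95434820-95435119 (reverse), Cfap161 at chr7:83794790-83795089 (reverse) and Cfap298 at chr16:90934800-90935099 (reverse).
Cfap47: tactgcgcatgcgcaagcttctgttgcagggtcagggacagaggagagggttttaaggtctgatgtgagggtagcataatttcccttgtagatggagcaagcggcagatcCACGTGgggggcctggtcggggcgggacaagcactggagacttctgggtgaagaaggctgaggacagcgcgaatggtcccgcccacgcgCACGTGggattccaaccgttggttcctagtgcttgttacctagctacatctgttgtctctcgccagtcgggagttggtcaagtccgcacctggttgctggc
Cfap57: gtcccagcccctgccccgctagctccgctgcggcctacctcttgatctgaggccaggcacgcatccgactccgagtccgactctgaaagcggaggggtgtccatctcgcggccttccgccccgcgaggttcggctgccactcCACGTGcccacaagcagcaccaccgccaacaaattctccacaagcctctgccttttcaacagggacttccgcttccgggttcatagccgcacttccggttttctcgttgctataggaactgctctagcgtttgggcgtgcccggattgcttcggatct
Dnaic2: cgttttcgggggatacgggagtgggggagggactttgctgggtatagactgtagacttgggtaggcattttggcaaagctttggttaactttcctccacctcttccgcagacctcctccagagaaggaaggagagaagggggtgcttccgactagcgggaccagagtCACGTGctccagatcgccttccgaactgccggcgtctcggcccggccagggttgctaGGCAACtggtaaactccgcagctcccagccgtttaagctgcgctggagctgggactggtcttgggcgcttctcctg
Cfap20: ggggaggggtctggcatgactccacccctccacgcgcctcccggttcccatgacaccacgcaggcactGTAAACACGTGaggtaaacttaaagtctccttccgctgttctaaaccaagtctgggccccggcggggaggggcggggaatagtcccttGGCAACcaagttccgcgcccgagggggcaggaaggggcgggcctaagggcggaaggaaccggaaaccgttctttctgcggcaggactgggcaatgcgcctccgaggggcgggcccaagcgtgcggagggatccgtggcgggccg
Cfap161: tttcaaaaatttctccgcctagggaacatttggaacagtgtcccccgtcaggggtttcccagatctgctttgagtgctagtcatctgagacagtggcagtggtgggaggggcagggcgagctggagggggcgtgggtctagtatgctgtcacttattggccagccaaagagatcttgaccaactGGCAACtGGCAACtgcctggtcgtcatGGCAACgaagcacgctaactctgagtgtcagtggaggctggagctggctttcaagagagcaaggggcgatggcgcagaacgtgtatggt
Cfap298: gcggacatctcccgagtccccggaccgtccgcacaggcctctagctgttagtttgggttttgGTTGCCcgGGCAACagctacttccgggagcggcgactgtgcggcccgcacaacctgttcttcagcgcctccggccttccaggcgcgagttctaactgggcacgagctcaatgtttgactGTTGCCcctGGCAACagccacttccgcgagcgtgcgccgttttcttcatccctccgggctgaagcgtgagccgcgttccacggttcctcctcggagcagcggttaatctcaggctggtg
Of the 56 genes, 45 had such a window. The E-box was in 4 of them (8.89%), namely Cfap47, Cfap57, Dnaic2 and Cfap20, against 8.09% of 27025 genes with a window. Cfap47 held 2 E-boxes, starting 140 and 51 bases before the gene start, and 184 genes (0.681%) held at least 2 in 1 window. The RFX half-site was in 19 of 45 windows (42.2%), against 14.1% of all genes, with 3 copies in Cfap161 and 4 in Cfap298. The forkhead core was in 2 windows, those of Cfap20 and Cfap43 (4.44%, against 4.05% of all genes), and in Cfap20 it overlaps the E-box, so that both stand in 1 run of capitals. These matches describe letters in a window and not bound sites. The 11 genes without a window were Cfap157, Cfap299, Cfap53, Cfap54, Cfap65, Cfap97, Dnah3, Foxj1, Rsph1, Rsph10b and Rsph4a.

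The libraries held between 21679622 and 32091173 reads on genes, and no pair was a repeat of the same library. Usf1 was at 842 to 1583 normalised counts in the 6 WT mice and at 117 to 163 in the 6 KO mice, with means of 1409 ± 284 and 141 ± 15.0 (SD, n = 6). KO mice therefore kept 9.98% of the WT level, a log2 difference of -3.29 (exact permutation test, two-sided; p = 0.00216, which no split of 6 against 6 mice can undercut). The lowest WT count was that of WT 493. Hippocampal neuron genes, such as Zbtb20, Fibcd1 and Wfs1, were present in each library, with a summed level of 22342 to 31496 in WT and 24949 to 36397 in KO mice. WT 490 and WT 493 stood apart in the choroid plexus genes, and WT 493 stood apart in the motile cilia genes too. Some results that rest on them are given with and without them, and the others hold all 12 mice.

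The normalised count of Ttr was 52017 for WT 490 and 149554 for WT 493, while it was 419, 185, 139 and 714 for WT 522, WT 523, WT 547 and WT sample573. In KO 482, 484, 488, 530, 553 and 564 it was at 1308, 282, 1038, 319, 1530 and 646. The other 4 WT mice overlapped with the KO mice, and the medians were 566 in WT and 842 in KO. The log2 difference of KO against WT was -1.49 (two-sided exact permutation test, p = 0.444), and it was -0.55 without WT 490 and -0.25 without WT 493. Without both it was 1.24, a value given with no test because these mice were set aside by their Ttr count. On the count scale edgeR and DESeq2 both gave -5.31 with all mice. The 20 choroid plexus genes, led by Ttr, Enpp2 and Kl, summed to 4411 to 250564 in WT and to 3846 to 6641 in KO mice. Enpp2 alone was at 3354 in WT 522 and at 2628 in KO 530, so that it made up most of the lowest sum of each genotype. Of the 20 genes, 4 were at 0 in at least 1 mouse.

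With all 12 mice in the fit, the motile cilia genes showed no common shift between genotypes. Of the 56 genes, 25 were higher and 31 lower in KO mice. Their median log2 fold change was -0.02, against -0.00 over the 18221 genes tested. These directions can rest on WT 493, which had the highest count in 34 of the 56 genes, and they were not counted without it. In 35 of the 56 genes the sign changed in some of the alternative fits described below. One gene passed the threshold, Cfap47, which fell (limma on log2(normalised count + 1), Benjamini-Hochberg adjusted p under 0.05 over all genes tested). This is 1 of 56, beside 0.900% of all genes tested in either direction and 0.741% in the falling direction alone. At an unadjusted p under 0.05 limma gave 4 of the 56 (7.14%), against 13.5% of all genes. The same test in edgeR on the recovered reads called 0 of the 56 at an adjusted p under 0.05, and DESeq2 called Cfap47 as lower. Those tools called 0.829% and 3.38% of all genes in either direction, and DESeq2 called 2.67% as lower. DESeq2 gave no adjusted p for Tekt4, Cfap77, Cfap97d2, Cfap99, Cfap221, Cfap299 and Cfap53, and so could not call them. Its shares are over all 18221 genes, including any without an adjusted p. In bulk tissue, fewer cells of a type and less RNA per cell cannot be told apart.

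**Figure D1:**
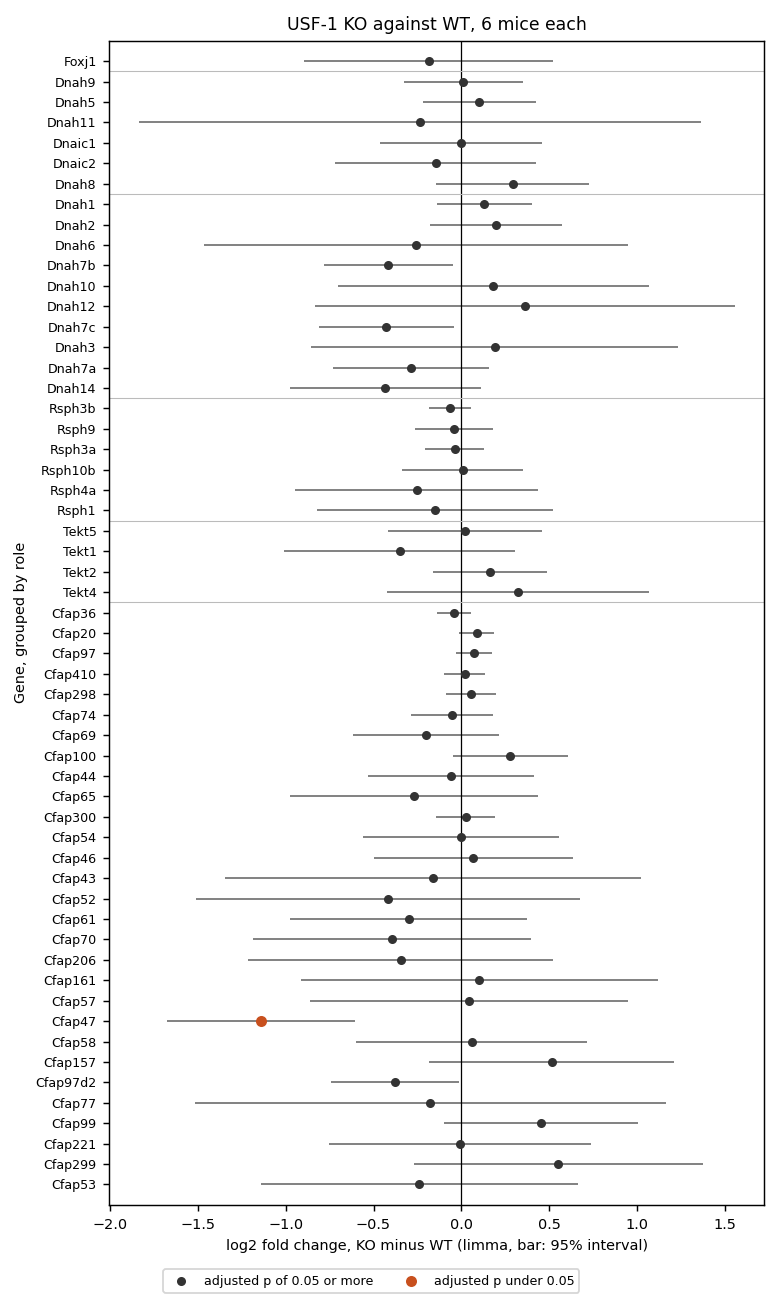
Log2 fold change of USF-1 KO against WT (6 mice each) for the 56 genes by role, with points for limma's estimate and bars for its 95% interval. Cfap47, the orange point at -1.14, is the gene past the threshold, and the bars of most others span 0.

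Foxj1 (chr11:116330704-116335399) was at 314, 641, 133, 293, 282 and 245 normalised counts in the WT mice, listed by ascending mouse number from WT 490 to WT sample573. In the KO mice, from KO 482 to KO 564 in the same way, it was at 320, 358, 348, 119, 271 and 194. WT 493 was the highest mouse, WT 522 and KO 530 were the lowest, and the other 9 mice of both genotypes lay between 194 and 358. The log2 difference was -0.19 (95% interval -0.90 to 0.52; exact permutation test, p = 0.649), and it was 0.14 without WT 490 and WT 493 and -0.41 with sex as a covariate in limma. A change in either direction that lies within this interval could not be told from the spread between mice.

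The outer dynein arm holds the heavy chains Dnah5, Dnah9 and Dnah11, the Dnah5 paralogue Dnah8, and the intermediate chains Dnaic1 and Dnaic2. Of the 6 genes, 3 were higher and 3 lower in KO mice, with log2 fold changes from -0.24 to 0.29 and 0 past the threshold by limma. Dnah9, the most abundant of them by count, was at 733, 931, 465, 960, 886 and 727 in WT mice and at 697, 868, 643, 857, 928 and 664 in KO mice, listed by ascending mouse number. The genotypes overlapped over nearly the whole range, with means of 784 ± 185 and 776 ± 122 (SD, n = 6; log2 fold change 0.01, 95% interval -0.33 to 0.35). Dnah11 varied more between mice than any other of the 56 genes, at 79.5, 292, 13.6, 83.1, 88.7 and 55.5 in WT and 116, 131, 106, 5.60, 89.8 and 54.7 in KO mice. WT 493 was again highest, KO 530 and WT 522 lowest, and the range came to 52.1-fold. Dnaic1 and Dnaic2 were also highest in WT 493 and lowest in KO 530, over a range of 3.08-fold and 4.53-fold, whereas Dnah8 was highest in KO 553 and lowest in WT 522.

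Of the 10 inner arm heavy chains, 5 were higher and 5 lower in KO mice, and 0 passed the threshold by limma, with 2 at an unadjusted p under 0.05. Dnah1, the most abundant by count, was at 226, 352, 320, 315, 316 and 231 in WT and at 355, 363, 362, 261, 311 and 268 in KO mice, with a log2 fold change of 0.13 (95% interval -0.14 to 0.40). The 2 genes were Dnah7b and Dnah7c. Dnah7b was at 174, 227, 154, 133, 122 and 125 in WT and at 141, 121, 148, 84.0, 110 and 92.9 in KO mice, a log2 fold change of -0.42 ± 0.17 (SE; limma adjusted p = 0.298). Dnah7c was at 43.7, 73.2, 70.4, 43.4, 54.5 and 39.3 in WT and at 54.6, 36.0, 39.9, 34.7, 32.8 and 38.2 in KO mice, a log2 fold change of -0.43 ± 0.18 (SE; limma adjusted p = 0.308). In both genes the 2 highest mice were WT, and the genotypes overlapped. Dnah7a, Dnah7b and Dnah7c share 27.8% to 34.5% of their 75-base stretches with one another, so that reads could be divided among them in counting and their single levels are uncertain. Dnah6 ranged from 31.8 in WT 522 to 572 in WT 493 and Dnah12 from 11.4 in WT 522 to 132 in KO 484, with log2 fold changes of -0.26 (95% interval -1.47 to 0.95) and 0.36 (-0.84 to 1.56). Dnah14 was at 57.9 in WT 522 and at 16.2 to 31.8 in the other WT mice, while KO mice lay at 17.9 to 21.7. Its log2 fold change of -0.43 (95% interval -0.98 to 0.11; limma adjusted p = 0.488) was the largest fall after that of Cfap47.

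The radial spoke genes contained both steady and variable members. Rsph3b, of the spoke stalk, was at 624, 676, 703, 636, 641 and 630 in WT and at 707, 597, 640, 612, 626 and 562 in KO mice, with a log2 fold change of -0.06 (95% interval -0.18 to 0.05). Rsph3a and Rsph3b share 66.4% to 69.3% of their 75-base stretches and were the 2 radial spoke genes with less than a 1.5-fold range. Rsph1 and Rsph4a, of the spoke head, were at 262 and 357 in WT 493 and at 47.1 and 61.6 in KO 530, a 5.57-fold and a 5.79-fold range. The remaining 10 mice lay between these values in both genes. Rsph9, also of the spoke head, was at 387 in WT 493 and between 237 and 295 in the other 11 mice.

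Among the tektins, Tekt5 had the highest count, at 212, 160, 93.1, 171, 241 and 167 in WT and 172, 153, 214, 185, 113 and 202 in KO mice, a log2 fold change of 0.02 (95% interval -0.42 to 0.46). It did not share the order of mice seen for Foxj1, since WT 547 was highest. Tekt1 was at 166 in WT 493 and between 31.0 and 70.9 in the other 11 mice, and Tekt4 was at 32.9 in WT 493. Tekt2 ranged from 28.3 in KO 484 to 51.0 in KO 553. Of the 4 tektins, 3 were higher and 1 lower in KO mice, and 0 passed the threshold by limma.

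Of the 29 Cfap genes, 13 were higher and 16 lower in KO mice. Cfap47 (ENSMUSG00000073077, chrX:79266559-79517285), whose product belongs to the central apparatus, was at 39.0, 66.9, 34.1, 35.1, 31.3 and 32.4 normalised counts in WT mice and at 11.3, 19.6, 16.3, 22.4, 26.7 and 10.3 in KO mice. Each KO mouse lay below each WT mouse, and WT 493 was highest here too. The means were 39.8 ± 13.5 and 17.8 ± 6.38 (SD, n = 6), so that KO mice held 44.7% of the WT level, a log2 fold change of -1.14 ± 0.25 (SE; 95% interval -1.68 to -0.61; limma adjusted p = 0.0486). The genotypes did not overlap in 1 of the 56 genes, beside 1.50% of all genes tested. The adjusted p lay just below the threshold, and it passed in 6 of the 25 alternatives at 0.05 that gave it a value. It was 0.0512 in edgeR, 0.00314 in DESeq2, 0.0985 with sex as a covariate, 0.0765 without WT 493 and 0.211 without WT 490 and WT 493, while the log2 fold change stayed between -1.27 and -0.94. Per kilobase of exon, Cfap47 was among the lowest of the 56 genes, at 2.93 normalised counts.

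The 3 tested genes nearest to Cfap47 on either side of the X chromosome did not pass the threshold by limma. The closest of them were Rps24-ps3, 0.0711 Mb away with a log2 fold change of -0.14, and Gm14760, 0.677 Mb away on the other side with -0.00. Prrg1, 0.683 Mb away, had a log2 fold change of -0.54 (limma adjusted p = 0.115). Xlr3b, of the X-linked lymphocyte-regulated family, lies 6.06 Mb away and rose by 1.74 on the log2 scale (limma adjusted p = 0.0283). The other genes with an E-box in the window were not past the threshold, and their log2 fold changes were 0.04 for Cfap57, -0.15 for Dnaic2 and 0.09 for Cfap20.

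The largest differences toward higher levels in KO mice were those of Cfap299, Cfap157, a basal body protein, and Cfap99. Their log2 fold changes were 0.55 ± 0.38, 0.52 ± 0.33 and 0.45 ± 0.26 (SE), none of them past the threshold by limma, and all had mean counts under 25 in both genotypes. Cfap97d2 had an unadjusted p under 0.05 with a log2 fold change of -0.38 (limma adjusted p = 0.350). Cfap36, the most abundant by count and by length, was at 1626, 1777, 1530, 1707, 1839 and 1703 in WT and at 1646, 1596, 1680, 1604, 1598 and 1748 in KO mice, which is a log2 fold change of -0.04 (95% interval -0.14 to 0.05). This was one of the narrowest intervals among the 56 genes, whereas for Dnah11 it ran from -1.84 to 1.36.

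By their medians, the 56 genes varied more between mice than all genes tested. The median SD within a genotype was 0.46 on the log2 scale over the 56 genes, against 0.15 over all genes tested, and the median range from the lowest to the highest mouse was 3.54-fold against 1.44-fold. The range exceeded 5-fold in 22 of 56 genes (39.3%), against 3.98% of all genes. These values hold all 12 mice, and WT 493 was the highest mouse in 34 of the 56 genes. Ranges were not counted without it, and some would be narrower. In Foxj1 the second highest mouse was at 358 and the lowest at 119, whereas in Dnah11 they were at 131 and 5.60. It stayed below 1.5-fold in 8 genes, which were Rsph3a, Rsph3b, Cfap20, Cfap36, Cfap97, Cfap298, Cfap300 and Cfap410. Their levels ran from 84.5 (Rsph3a) to 609 (Cfap36) normalised counts per kilobase of exon, a range that also held Foxj1 at 112 and Rsph9 at 170, whereas Dnah6 was at 13.6 and Dnah11 at 6.43. Cfap410 and Cfap36 are known from primary cilia as well, the single sensory cilia that neurons and astrocytes carry. For Cfap298, 53.6% of exon bases lie in genes on the opposite strand, so that its level is uncertain if the counting did not use strand.

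**Figure D2:**
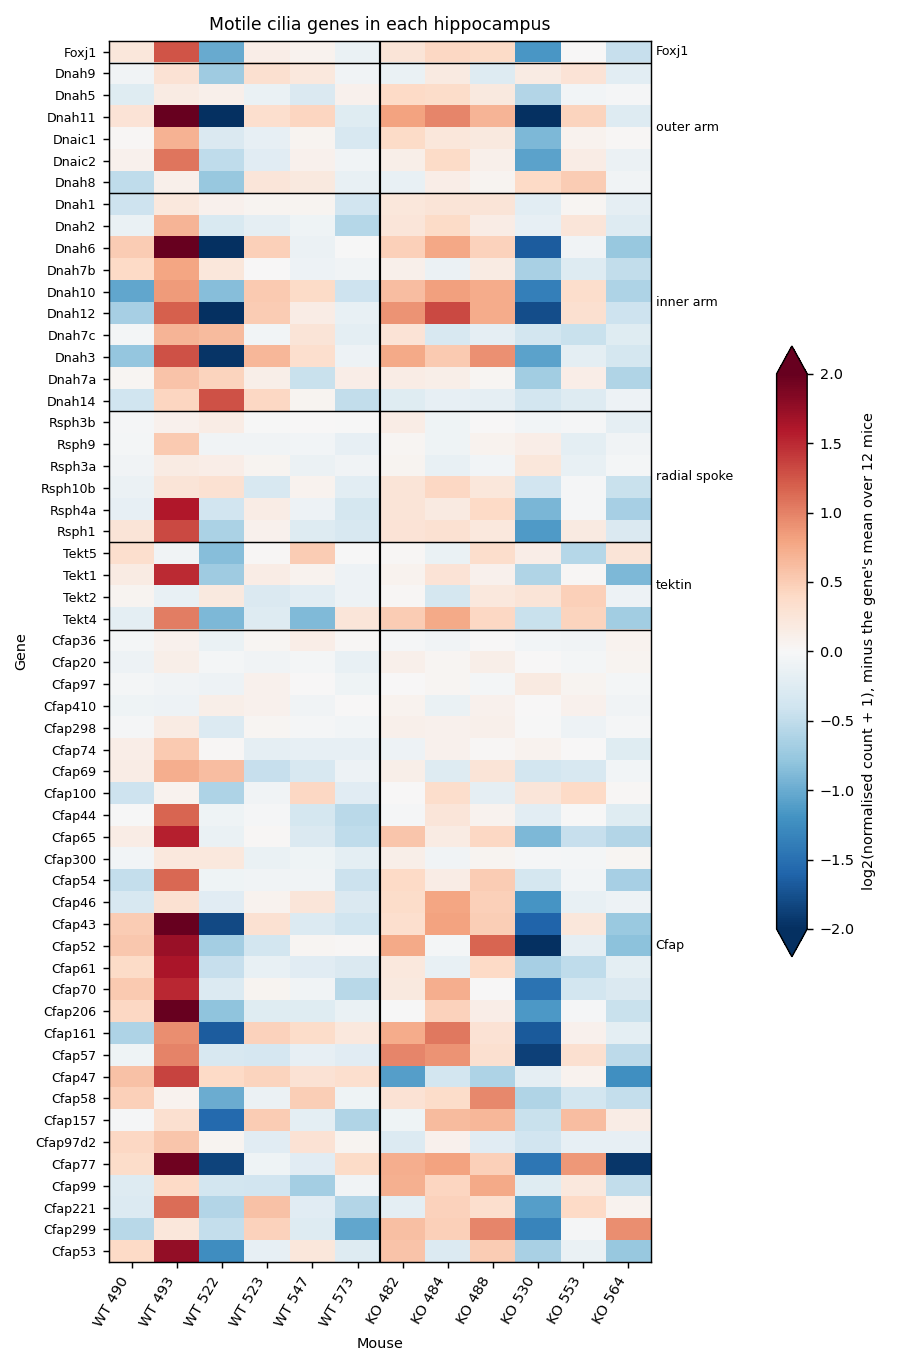
Each row is 1 of the 56 genes by role and each column 1 mouse, with WT mice to the left of the line; the colour gives log2(normalised count + 1) minus the gene's mean, from blue (lower) to red (higher), with values beyond 2 at the end colours. WT 493 is red in most rows, and KO 530 and WT 522 are blue in the same rows.

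The same mice held the extremes in gene after gene. WT 493 had the highest count in 34 of the 56 genes (60.7%), against 11.3% of all genes tested. KO 530 had the lowest in 21 (37.5%, against 10.9%) and WT 522 the lowest in 15 (26.8%, against 13.7%). A score per mouse, obtained by centring each of the 56 genes on its own mean log2 value and averaging over the genes, was 0.81 in WT 493 and then 0.27 in KO 484, 0.27 in KO 488 and 0.23 in KO 482. It was 0.05 in WT 523, 0.03 in KO 553, -0.01 in WT 490, -0.02 in WT 547, -0.18 in WT sample573 and -0.31 in KO 564, and lowest in WT 522 at -0.47 and KO 530 at -0.66. Thus both genotypes stood at both ends of the order.

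Set beside Ttr, the mice did not stand in the same order by motile cilia genes. WT 493 was highest in both. WT 490 had 52017 counts of Ttr but a score of -0.01, a median ratio to the mean of each gene of 0.959, and the highest count in 0 of the 56 genes. A high choroid plexus level thus went without a high score of the 56 genes in that mouse. Single genes differed from this. Cfap74 and Dnah7b, at 497 and 174 in WT 490, were second only to WT 493, and so was Drc7, another axoneme gene, at 348. In 8 of the 56 genes WT 490 was among the 2 lowest mice. Among the 10 mice with Ttr between 139 and 1530, scores ran from -0.66 to 0.27, and KO 484 and KO 530, with 282 and 319 counts of Ttr, were near the top and at the bottom. Since Ttr fell into 2 high mice and 10 low ones, no correlation over the 12 mice is given. In a limma fit with log2(Ttr + 1) beside genotype, 50 of the 56 slopes were positive (89.3%, against 48.5% of all genes), with a median of 0.06 log2 units per doubling of Ttr, against -0.00 over all genes. Without WT 490 and WT 493, 32 of the 56 were positive (57.1%, against 49.8% of all genes). Cfap61, of the radial spoke base, was the 1 gene past the threshold, beside 1.62% of all genes tested, with a slope of 0.16 (limma adjusted p = 0.0465). Without WT 490 and WT 493 its slope was 0.07 (limma adjusted p = 0.930), and 0 of the 56 genes passed. In the same fit 18 of 19 choroid plexus genes other than Ttr had a slope past the threshold, as did 8 of 52 further axoneme and dynein assembly genes (Drc7 and Wdr63 among them), 3 of 10 leptomeningeal and fibroblast genes, 1 of 16 ependyma genes and 1 of 14 ciliogenesis regulators. Without WT 490 and WT 493, 0 of the genes in these lists passed by limma.

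**Figure D3:**
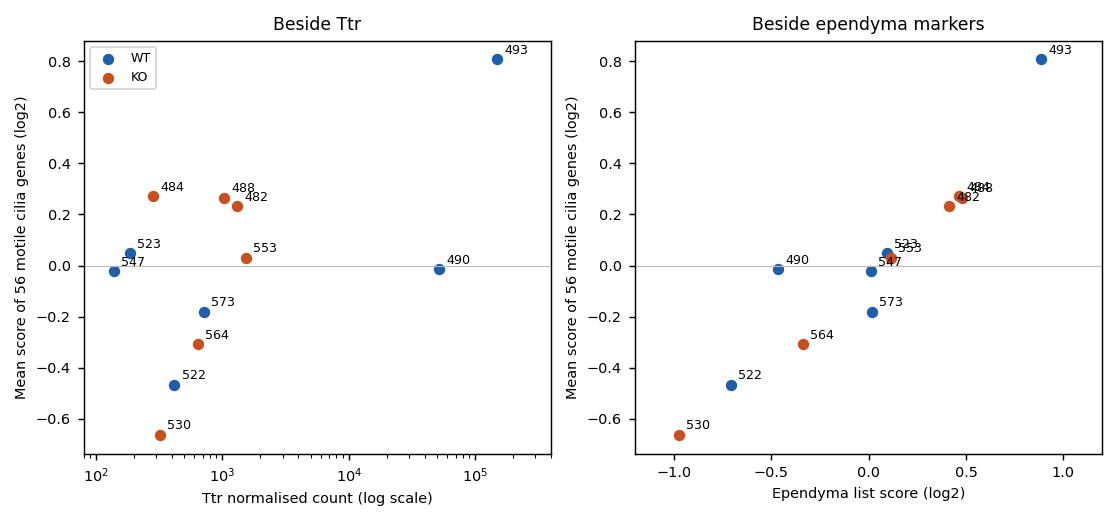
The score of the 56 genes (log2 units) in each of 12 mice, labelled by mouse number, against the Ttr normalised count on a log scale (left) and against the score of 16 ependyma genes in log2 units (right); blue is WT and orange is KO. WT 490 lies far to the right at -0.01 in the Ttr panel, while in the ependyma panel the mice run from KO 530 at the lower left to WT 493 at the upper right.

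The 56 genes were next set beside other genes of the ependyma. The ependyma list held 18 genes, of which 16 passed the limit on the mean and none is one of the 56; Nnat, Pltp and Tm4sf1 were its most abundant. Several of the list, such as Ak7, Enkur, Dynlrb2 and Sntn, are themselves genes of cilia. Ccdc153, one of them, was at 180 in WT 493, 183 in KO 484, 151 in KO 482 and 151 in KO 488, and at 28.6, 25.0 and 29.1 in WT 490, WT 522 and KO 530. Tmem212, another, was at 65.8 in WT 493 and at 11.9, 10.2 and 10.1 in those same 3 mice. WT 490, with its high Ttr, was thus low in both. Its score over the 16 genes, taken as for the 56, was -0.46, against -0.71 in WT 522 and -0.97 in KO 530. Other genes of the list were not low in WT 490. Mlf1 was at 31.0 in it, against a mean of 26.6 over all mice. Dynlrb2 was at 31.0 against 30.1, and Pltp at 1450 against 1430. The summed level of the list was 6780 to 11160 in WT and 5710 to 11348 in KO mice. Nnat, at a mean of 5990, made up most of this sum, which therefore says little of the other genes of the list. With the score of this list beside genotype in limma, a fit added after the values had been seen, 18 of the 56 genes had a slope past the threshold, all of them positive, beside 0.697% of all genes tested in either direction and 0.675% with a positive slope. Because the score itself holds genes of cilia, positive slopes were likely from the start, and the count is no independent test. The median slope was 0.61 log2 units per unit of the score. The largest were those of Dnah11 (2.48 ± 0.30, SE), Dnah12 (1.91 ± 0.18), Cfap77 (1.86 ± 0.36), Dnah6 (1.81 ± 0.26) and Cfap43 (1.75 ± 0.27), and Foxj1 had a slope of 1.11 ± 0.13 (limma adjusted p from 2.4e-04 to 0.0277).

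Every role contributed to these 18 genes, with Foxj1, 3 outer arm chains (Dnah11, Dnaic1 and Dnaic2), 4 inner arm chains (Dnah3, Dnah6, Dnah10 and Dnah12), Rsph1 and Rsph4a, Tekt1, and 7 Cfap genes. The 7 were Cfap43, Cfap46, Cfap52, Cfap57, Cfap77, Cfap161 and Cfap206. Cfap47 was not among them, with a slope of 0.17 (limma adjusted p = 0.839), and with the ependyma score as a covariate its log2 fold change between genotypes was -1.15. The count was 8 without WT 493 (0.335% of all genes), 10 without KO 530 and 16 with log2(Ttr + 1) also in the fit (0.648%). Without WT 493, WT 522 and KO 530 together it was 0, and the slopes of the 18 genes then lay between 0.14 and 1.92, so that the calls needed the mice at the ends. The RFX half-site was in 5 of the 14 windows among the 18 genes and in 14 of 31 windows among the other 38, and Cfap161, with 3 copies, had a slope of 1.56, while Cfap298, with 4, had one of 0.15.

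**Figure D4:**
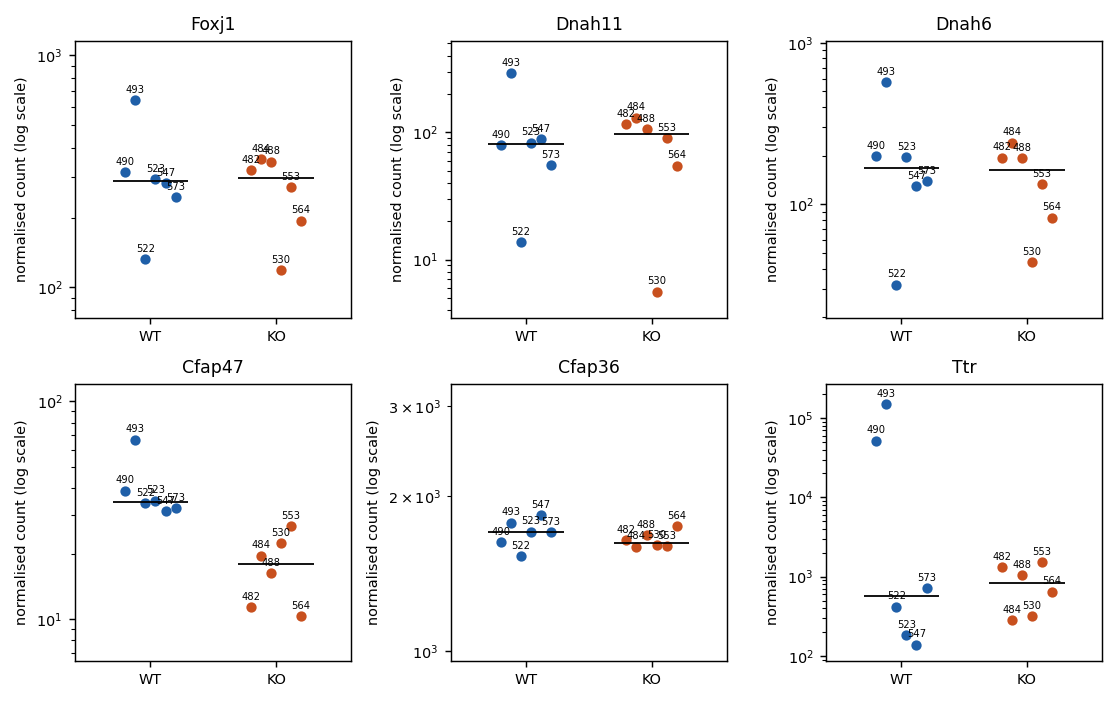
Normalised counts on a log scale of Foxj1, Dnah11, Dnah6, Cfap47, Cfap36 and Ttr in 6 WT (blue) and 6 KO (orange) mice, labelled by mouse number, with bars at the medians. Foxj1, Dnah11 and Dnah6 share WT 493 at the top and WT 522 and KO 530 at the bottom, Cfap36 stays between 1530 and 1839, and Cfap47 is the panel in which the genotypes do not overlap.

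Lists of genes of related function were described in the same fits. Of 52 other axoneme and dynein assembly genes, led by Dnal1, Gas8 and Tppp3, 0 passed the genotype threshold by limma (median log2 fold change -0.12), while 18 had an ependyma slope past it. Hydin, of the central apparatus, and Dnali1, an inner arm light chain, had slopes of 1.84 and 2.17. Of 14 ciliogenesis regulators, led by Rfx3, Rfx1 and E2f4, 0 passed by genotype and 0 by ependyma slope, with medians of 0.11 and 0.26. Of 31 transport genes of primary cilia, among them Kifap3, Kif3a and Kif3b, 0 passed in either fit, with medians of -0.01 and 0.02.

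Marker genes of other cells in the tissue were set beside these values. Leptomeningeal and fibroblast genes, such as Dcn, Col1a2 and Slc13a4, summed to 892 to 3780 in WT and 804 to 3146 in KO mice, with 0 of 10 past either the genotype or the ependyma threshold by limma. Astrocyte genes (Slc1a2, Aldoc and Slc1a3 among 8) had medians of -0.02 by genotype and -0.05 by ependyma slope, with 0 past the threshold. Of 10 oligodendrocyte genes, among them Mbp and Cnp, 10 were lower in KO mice, with a median log2 fold change of -0.68, and Ugt8a passed the threshold (-0.90, limma adjusted p = 0.0167). The 7 neuronal genes had 0 past the threshold, with a median of 0.17. The part of the composition of each dissected hippocampus in the levels of the motile cilia genes was not tested.

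Cfap45 and Cfap126, which lie 1.10 and 0.284 Mb from Usf1, had log2 fold changes of 0.02 and -0.35 (limma adjusted p = 0.980 and 0.760). Cfap126 was at 141 in WT 493 and between 18.2 and 63.2 in the other 11 mice. Of the 6 genes below the limit, Cfap97d1 had 0 reads in each library, and Cfap73 had a mean of 9.76, with 2.24 in KO 530, 2.27 in WT 522 and 17.0 in WT 493, just below the lowest of the 56 genes, Cfap53 and Cfap299, at means of 11.0 and 11.1.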

How the data were processed

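RNA from 12 hippocampi, 1 per mouse, was measured by RNA-seq. The deposited signal is the normalised count per gene that the authors obtained by dividing the reads counted on each gene by a size factor of the library. According to the methods the reads were aligned with STAR and analysed with DESeq2, and the submitters' processing notes name STAR 2.5.0a, edgeR 3.22.2 and mm10. The annotation, the counter, its parameters and the use of strand are not given in the sources used here. Of the 55487 genes, 54821 have the coordinates of GENCODE M21 on GRCm38, as do 55 of the 56 members. In each library 100% of values were whole multiples of a single step (tolerance 0.001), from which reads were recovered, and counts therefore carry the precision of between 21679622 and 32091173 reads per mouse.

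The 2 genotypes were compared in limma 3.58.1 (R 4.3.3), two-sided, after adding 1 to each normalised count and taking log2; the fit allowed a mean-variance trend and held all 12 mice and the genes with a mean of at least 10, with Benjamini-Hochberg adjustment over all genes and a threshold of 0.05. Such fold changes understate changes of low genes. Slopes were fitted beside genotype. Single values (Usf1, Ttr, Foxj1) were tested with exact permutation over 924 assignments. The labels mark separate mice without further replicate numbers. Alternatives were pseudocounts of 0.5 and 5, no limit or a mean of at least 50, rescaled totals, quantile normalisation, sex or Ttr as a covariate, no trend, edgeR 4.0.16 and DESeq2 1.42.0 on recovered reads, a threshold of 0.1, the 2 mice farthest from the median Ttr left out, and each mouse left out. The steps were tested on simulated counts.

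The members and the lists of marker genes were chosen with earlier results of these data known. Values of every mouse were given for Foxj1, Ttr, Usf1, members past the threshold or with the 3 smallest p, and the most abundant gene of each role; the 3 largest rises and falls and the 3 most abundant genes of each list were named, and the choice of further genes followed a look at their values. One list gene is not reported here by name. Promoter windows came from RefSeq and were searched on both strands. Exon lengths and shared 75-base stretches came from GENCODE M21. Plots were drawn with matplotlib 3.10.9.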

Additional observations from a re-analysis of the deposited data

Results flagged for a closer look

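Within a genotype, the gap of a mouse to the nearest other was taken as a share of the range over 6 mice. It exceeded Dixon's 95% critical value in 26 of 120 groups of 6 mice. For normally distributed values chance gives about 1 in 20, or 6 of them. The share was taken on normalised counts, and on log2 values it was not computed, so the excess over 6 can depend on the scale. The genes also share mice, so these groups are not independent. In 23 of the 26 groups the mouse apart was WT 493, at the top. Its Ttr count was 149554, next to 52017 in WT 490, and its Foxj1 count was 641, against 314 for the next WT mouse. Of the dynein chains it stood apart in Dnah11 (292), Dnaic1 (138), Dnaic2 (137), Dnah2 (357) and Dnah6 (572), and of the radial spoke genes and tektins in Rsph9 (387), Rsph4a (357), Rsph1 (262) and Tekt1 (166). Of the Cfap genes with higher counts it stood apart in Cfap65 (763), Cfap44 (629), Cfap54 (437) and Cfap43 (314). In Cfap61, Cfap52, Cfap206 and Cfap70 its counts were 165, 161, 161 and 131, and in Cfap47, Cfap57, Cfap77 and Cfap53 they were 66.9, 55.2, 44.6 and 34.0. The same mouse stood apart at the bottom of the WT group in Usf1, with 842 against 1425 for the next. The remaining cases were Dnah7c in KO 482, at 54.6 against at most 39.9 in the other KO mice, and Dnah14 in WT 522, at 57.9, with the other WT mice reaching 31.8.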

How the results depend on the processing

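Of 1493 values of single members under the alternatives, 1325 kept their direction and their side of the threshold, 149 (in 35 members, none past the threshold) changed sign, and 19 (all Cfap47) kept the direction without passing it. No other member passed under an alternative at 0.05. The number of all genes called by genotype, 164 as reported, was 98 with sex as a covariate, 109 without the trend, 616 in DESeq2, 59 without the 2 mice farthest from the median Ttr (WT 490 and WT 493), 343 at a threshold of 0.1 and 349 without WT 493, WT 522 and KO 530; leaving out each mouse gave 64 (without WT 490) to 516 (without WT 522). Members past the threshold, 1 as reported, numbered 0 with no limit on the mean, a mean of at least 50 (which drops Cfap47), rescaled totals, quantile normalisation, sex or Ttr as a covariate, no trend, edgeR, without the 2 mice and without the 3 mice, and 0 to 1 with each mouse left out. List genes past it, 1 as reported, numbered 25 in DESeq2, 0 without the 2 mice, 3 with the ependyma score as a covariate, 10 without the 3 mice, 7 at 0.1, and 0 to 10 with each mouse left out. Members with a Ttr slope, 1 as reported, numbered 0 with a mean of at least 50, quantile normalisation, sex, no trend and without the 2 mice, 2 beside the ependyma score, 2 at 0.1, and 0 (without WT 493) to 3 (without WT 490) with each mouse left out. Members with an ependyma slope, 18 as reported, numbered 0 without the 3 mice and 8 (without WT 493) to 20 with each mouse left out. The log2 difference in Ttr was -5.31 by edgeR's quasi-likelihood test (unadjusted p = 0.00534) and -5.31 by DESeq2 (unadjusted p = 8.2e-05), against -1.49 as reported; it was 1.24 without the 2 mice (a value with no test, added after seeing the data) and -2.26 to -0.25 with each mouse left out. That of Foxj1, -0.19 as reported, was -0.41 with sex and -0.0088 with Ttr as a covariate, 0.14 without the 2 mice and -0.41 (without WT 522) to 0.046 (without WT 493) with each mouse left out, 0.028 without KO 530. The cause of these shifts was not tested. The ependyma fits and the fits without the 3 mice were chosen after seeing the data. Single levels have no value for the limit on the mean, and Ttr none with itself as a covariate. No paired analysis was possible because the labels give the mice no replicate numbers shared between genotypes. For members with counts near 10, few reads per mouse limit what could be detected.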
